A study of Arabidopsis thaliana with 44 samples.

Results

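The libraries described here are whole seedlings of Arabidopsis thaliana after 2 h of the peptide PSY5, set against seedlings at 0 h. They were chosen by their labels alone: 3 seedling libraries labelled 2 h and 3 labelled 0 h, 6 of the 44 libraries of the series. All 6 carried tpst-1, a mutation in the gene of tyrosylprotein sulfotransferase, and were labelled as 7 days old. The 2 h seedlings had 1 uM PSY5, and the 0 h seedlings carry no treatment label. Seedlings of the same genotype after 6 h, 24 h and 7 d of 1 uM PSY5, also labelled as 7 days old (3 libraries each), shared the fit. Separate comparisons used 7-day-old tpst-1 roots with and without 1 uM PSY5 (3 and 3). They also used 7-day-old tpst-1 shoots with and without 1 uM PSY5 (4 and 4). Further genotypes without PSY5, also labelled as 7 days old, shared those fits. They were tpst/psyr1,2,3 roots (3 libraries) and wild-type, psyr1,2,3 and tpst/psyr1,2,3 shoots (4 each). No seedling library kept for 2 h without PSY5 and no wild-type seedling library is among the samples, so the peptide, the time since the start of treatment and the handling of the plants cannot be told apart. The labels name the tissue as seedling, although the RNA protocol mentions roots and shoots. In such bulk RNA, fewer cells of a type and less RNA per cell cannot be told apart. The labels do not say whether replicates were separate cultures, so the p-values measure the spread between these libraries, which may be technical.

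PSY peptides are secreted plant peptides that carry a sulfated tyrosine, an addition made by the single sulfotransferase TPST in the Golgi. Without TPST, plants lack the active forms of the PSY, PSK, RGF and CIF families, and a synthetic sulfated peptide can be supplied from outside. PSY peptides are recognised by leucine-rich repeat receptor kinases, and in Arabidopsis they are known as signals that set growth against stress responses. The series title names that trade-off as its subject, and the times on PSY5 ask how soon after the peptide is given transcripts change.

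The libraries at 2 h held 11.2 to 13.0 M reads and those at 0 h 10.5 to 14.3 M reads, with 19531 to 19827 genes at 1 TPM or more in each (TPM, a level per transcript length that is scaled to the same total in each library). The 45 members of a list of nuclear photosynthesis genes summed to 72349.9 to 75239.8 TPM at 2 h and 61850.4 to 71279 TPM at 0 h, and the root hair genes to 244 to 270.4 TPM at 2 h and 213 to 234 TPM at 0 h. Both shoot and root tissue were therefore present in each library, as the label says. Libraries of 1 group were more alike than libraries of different groups: Spearman correlations over genes were at least 0.990 among the 2 h libraries, at least 0.989 among the 0 h libraries and at most 0.974 between them. In a principal component analysis of all 15 seedling libraries, the first component held 25.2% of the variance. On it the 0 h libraries lay between -44.1 and -42.7, and the 9 libraries of 2 h, 6 h and 24 h between 10.8 and 18.5, with those of 7 d between -5.94 and 7.22.

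After 2 h of PSY5, 954 genes had risen and 1687 had fallen among 21069 tested, which is 4.53% and 8.01% of the genes tested and 12.5% in all. A gene is said to have risen or fallen when its Benjamini-Hochberg adjusted p in edgeR's quasi-likelihood test was below 0.05. With upper-quartile in place of TMM scaling, 1399 rose and 1469 fell. The falls were larger than the rises: 654 genes fell over 2-fold and 126 rose over 2-fold, and the median log2 fold change was -0.78 for the genes that fell and 0.51 for those that rose. The median over all genes tested was 0.00. The plot of all genes shows this asymmetry, with a group of well-expressed genes far below zero and no matching group above it.

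**Figure D1:**
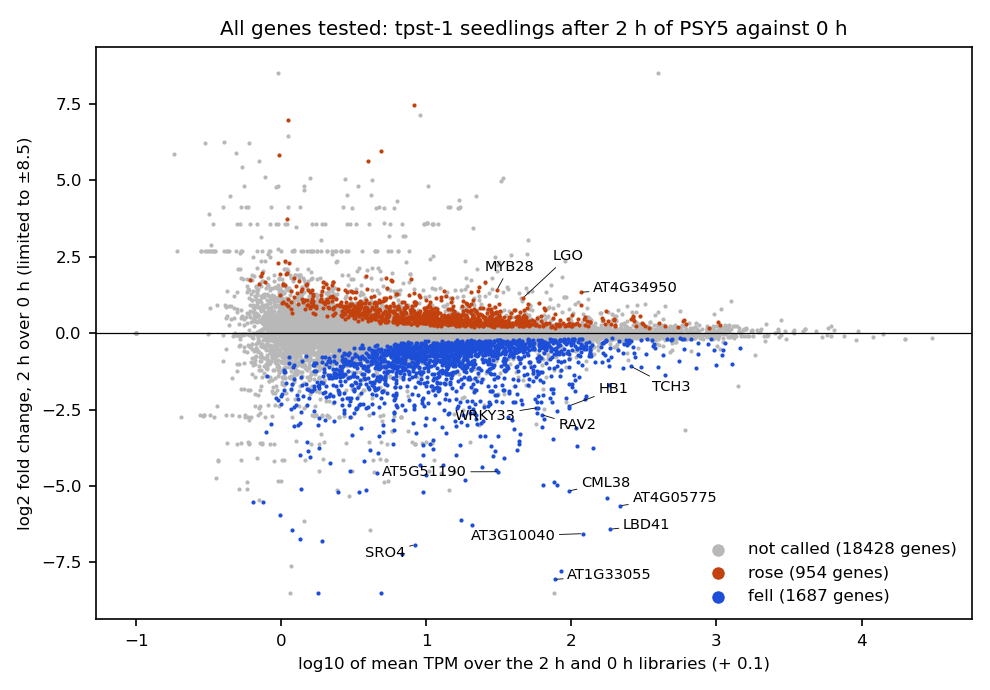
Each point is 1 of the 21069 genes tested, with the log10 of its mean TPM over the 2 h and 0 h libraries (0.1 added) on the horizontal axis and its log2 fold change, 2 h over 0 h, on the vertical axis, limited to 8.5 either way. The 1687 genes that fell reach far lower at TPM levels above 10 than the 954 that rose reach high, LBD41 with a log2 fold change of -6.41 among them.

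Genes of the low-oxygen response, which plants switch on when oxygen runs short, fell the furthest. Of the 15 members of that list, all of them tested, 14 fell and none rose, beside 8.01% falling among all genes, and the median log2 fold change was -2.36 beside 0.00 for all genes. ERF71 passed the filter on low values only through the 0 h libraries, and without it 13 of 14 fell. In all 15 members every 2 h library lay below every 0 h library, as in 11.8% of all genes tested. ADH1, alcohol dehydrogenase, was the member without a call, at 46.2 ± 15.5 TPM at 2 h and 80.2 ± 17.1 TPM at 0 h (SD, n = 3 each; log2 fold change -0.84, adjusted p = 0.153).

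LBD41, a LOB-domain transcription factor gene induced by hypoxia, had 5.89, 3.43 and 3.98 TPM at 2 h, against 376, 369 and 357 TPM at 0 h. All 3 libraries at 2 h were below 6 TPM and all 3 at 0 h above 350 TPM, a log2 fold change of -6.41 ± 0.29 (SE, adjusted p = 7.3e-13). AT3G10040, whose annotated synonym is HYPOXIA RESPONSE ATTENUATOR1, had 2.5, 2.1 and 3.14 TPM at 2 h, against 248, 237 and 228 TPM at 0 h (-6.56 ± 0.37). The groups were again far apart, by about the same factor as for LBD41.

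The enzymes of the list fell less far. AT5G15120 and AT5G39890, the plant cysteine oxidases PCO1 and PCO2 that sense oxygen by marking group VII ERF proteins for breakdown, stood at 3.84 ± 1.38 and 2.93 ± 1.08 TPM at 2 h, against 64.9 ± 5.0 and 57.5 ± 7.75 TPM at 0 h. AT4G33070, the pyruvate decarboxylase PDC1 of alcoholic fermentation, stood at 5.68 ± 4.50 TPM at 2 h and 79.0 ± 7.70 TPM at 0 h, and its relative PDC2 at 59.4 ± 2.91 TPM at 2 h and 111 ± 18 TPM at 0 h. HB1, a non-symbiotic haemoglobin that scavenges nitric oxide, had 36.1, 22.3 and 37.4 TPM at 2 h, against 158, 139.9 and 186 TPM at 0 h. Sucrose synthases SUS4 (-2.36) and SUS1 (-0.38), the alanine aminotransferase AlaAT1 (-0.93), the ERF genes ERF71 (-3.84) and ERF73 (-1.73), the ethylene receptor ETR2 (-2.32) and SRO5 (-2.24) also fell, the values being log2 fold changes.

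The summed level of the 15 low-oxygen genes set the 0 h seedlings apart from the rest of the series. It was 298, 350.2 and 363 TPM at the lowest, median and highest of the 2 h libraries, and 1519, 1577 and 1639 TPM at 0 h. In the 41 libraries other than those at 0 h, roots, shoots and all other seedlings together, it lay between 76.7 and 459 TPM. Those 41 include the 2 h libraries and the wild-type, psyr1,2,3 and tpst/psyr1,2,3 libraries, so they are not of tpst-1 alone. The fall at 2 h therefore brought these genes to the range of the other libraries, and what raised them at 0 h was not tested.

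In the 6 h, 24 h and 7 d seedlings the low-oxygen list also lay below 0 h. All these seedlings were labelled as 7 days old, so by label the 7 d group was not older than the 0 h group. LBD41 averaged 367 ± 9.43 TPM at 0 h, 4.44 ± 1.29 at 2 h, 4.53 ± 0.32 at 6 h, 18.17 ± 7.87 at 24 h and 62.0 ± 25.8 TPM at 7 d (SD, n = 3 each). AT3G10040 had a like pattern, with 238 ± 10.24, 2.58 ± 0.53, 2.61 ± 0.33, 10 ± 6.49 and 35.7 ± 17.0 TPM in the same groups. The list's median log2 fold change against 0 h was -2.36 at 2 h, -2.84 at 6 h, -3.22 at 24 h and -2.54 at 7 d, comparisons that share the 0 h libraries. Of all genes tested, 5.89% rose and 8.56% fell at 6 h, 5.43% rose and 8.63% fell at 24 h, and 8.53% rose and 10.8% fell at 7 d. In the plot by time the 0 h points stand alone in every panel.

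**Figure D2:**
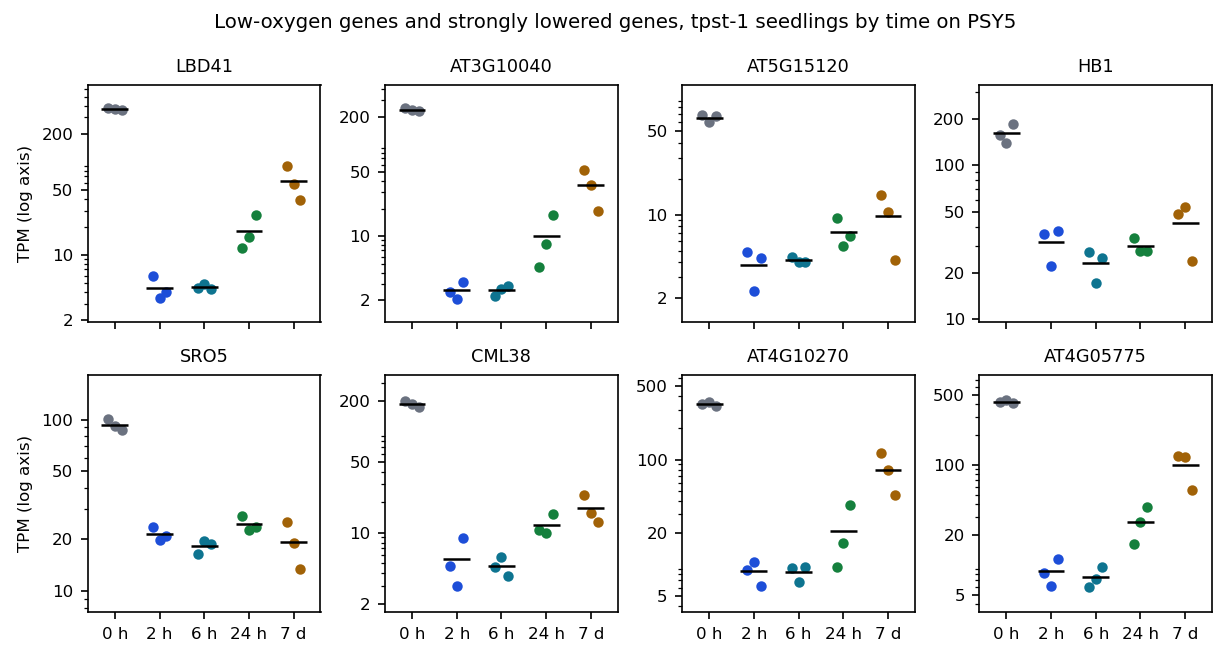
TPM on a log axis in each of the 15 seedling libraries for 8 genes that fell at 2 h, by time on PSY5 in order, with points for the 3 libraries of a time and a bar for their mean. For LBD41 the 3 libraries at 0 h lie between 357 and 376 TPM and the 3 at 2 h between 3.43 and 5.89 TPM.

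Among the 15 genes with the largest falls, LBD41 and AT3G10040 were 2, and several others had an uninformative annotated product or none. AT1G33055, an uncharacterised protein gene, had 0.41, 0 and 1.19 TPM at 2 h, against 150.4, 157 and 152 TPM at 0 h. AT4G10265, annotated as a wound-responsive family protein, had 0.74, 0.41 and 1.07 TPM at 2 h, against 164, 174 and 168 TPM at 0 h. For both, the 2 h libraries held almost no reads of a gene that was abundant at 0 h.

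AT4G10270, of the same wound-responsive family, had 8.89, 10.6 and 6.25 TPM at 2 h, against 339, 357 and 327 TPM at 0 h. The non-coding locus AT4G05775 had 8.30, 6.18 and 11.3 TPM at 2 h, against 421, 439 and 410.2 TPM at 0 h. The 2 loci overlap by 377 bases on opposite strands in TAIR10.1, and since the labels do not say that counting used strand, their reads cannot be told apart. CML38, a calmodulin-like protein gene, had 4.74, 2.95 and 8.80 TPM at 2 h, against 199, 184 and 174 TPM at 0 h (-5.16 ± 0.23). LBD40, a LOB-domain relative of LBD41, stood at 0.48, 0.72 and 0.31 TPM at 2 h, against 17.57, 18.6 and 18.7 TPM at 0 h.

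For the remaining largest falls the 2 h libraries held hardly any reads. MIR163 and AT4G06135 had no read at 2 h and 51.1 and 23.6 reads at 0 h, at least 17.3-fold and 7.98-fold lower by a floor of 3 reads over the group, a bound for counting error only. The small RNA gene ENSRNA049494572 had no read at 2 h, against 3.86, 6.72 and 17.8 TPM at 0 h, uneven among the 0 h libraries and at least 229-fold lower by the same floor. SRO4 was detected in 1 of the 3 libraries at 2 h, at 0.36 TPM, and had 15.6, 17.7 and 15.8 TPM at 0 h. AT5G57510, annotated as a cotton fiber protein, had 2.0 reads at 2 h and 86.4 at 0 h, 44.6-fold lower with a 95% counting interval of 11.7 to 366.1.

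Transcription factor genes of the general stress response fell together. The members that fell numbered 15 of 25 WRKY genes, 13 of 20 ERF and DREB genes, 9 of 11 zinc-finger genes and 13 of 22 NAC and MYB genes, with no member of these lists rising, beside 4.53% rising and 8.01% falling among all genes. Their median log2 fold changes were -1.15, -1.81, -1.85 and -0.66, beside 0.00 for all genes. With upper-quartile scaling 1 WRKY gene counted as risen, and the numbers that fell among the WRKY and the ERF and DREB genes were the same.

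WRKY33, which activates camalexin synthesis in defence, had 21.2, 17.3 and 18.3 TPM at 2 h, against 106, 96.2 and 94.0 TPM at 0 h (-2.44 ± 0.11, adjusted p = 4.7e-13). WRKY40, a WRKY repressor of immune genes, had 7.83, 6.11 and 5.72 TPM at 2 h, against 35.5, 34.4 and 36.6 TPM at 0 h (-2.49 ± 0.15). Every 2 h library of both genes lay far below the lowest 0 h library. WRKY70, which acts in salicylic acid signalling, averaged 27.0 ± 2.32 TPM at 2 h and 115 ± 14.8 TPM at 0 h, and WRKY18 averaged 31.5 ± 2.97 TPM at 2 h and 89.5 ± 5.89 TPM at 0 h (SD, n = 3 each).

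Among the ERF genes, AT5G51190, the ethylene response factor ERF105, fell furthest, with 2.23, 3.53 and 2.31 TPM at 2 h, against 53.0, 68.9 and 58.0 TPM at 0 h (-4.53 ± 0.19). It overlaps the locus AT5G51180 by 965 bases on the opposite strand. ERF104, which is released from the kinase MPK6 in defence signalling, had 5.27, 5.75 and 5.91 TPM at 2 h, against 40.4, 45.6 and 40.1 TPM at 0 h. ERF4, a repressor of ethylene and jasmonate responses, had 31.2, 28.3 and 31.4 TPM at 2 h, against 172, 168 and 145 TPM at 0 h. RAV2, a flowering repressor of the RAV family, stood at 17.58, 17.7 and 17.1 TPM at 2 h, against 92.5, 118 and 112 TPM at 0 h. In all of these genes the 3 libraries at 2 h differed little from each other and lay below all 0 h libraries.

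The zinc-finger genes SZF1 and STZ (ZAT10), both induced by salt stress, and ZAT6 fell by 2.83 ± 0.14, 2.76 ± 0.17 and 2.98 ± 0.18 on the log2 scale. SZF1 had 18.6, 15.1 and 16 TPM at 2 h, against 112, 118 and 109.9 TPM at 0 h. Of the NAC and MYB genes, ATAF2, a NAC repressor of defence genes, averaged 23.4 ± 3.54 TPM at 2 h and 94.1 ± 4.47 TPM at 0 h. MYB51, the activator of indolic glucosinolate synthesis, averaged 10.9 ± 1.14 TPM at 2 h and 49.3 ± 3.17 TPM at 0 h, and MYB77, an auxin and stress response gene, averaged 6.40 ± 0.56 TPM at 2 h and 32.9 ± 2.76 TPM at 0 h.

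The promoters of the genes that fell held W-boxes more often, the DNA element bound by WRKY proteins. Searched on both strands in the 250 bases before each annotated gene start, the motifs TTGACC or TTGACT were in 41.15% of the 1684 promoters of genes that fell, in 20.7% of the 953 of genes that rose and in 27.7% of all 20831 promoters of genes tested. The CAMTA-type box CGCGTT was in 5.17% of promoters of genes that fell, 2.31% of those that rose and 2.78% of all. The heat shock element was in 0.95%, 0.21% and 0.42% in the same order. The GCC box GCCGCC (2.38%, 0.94% and 2.07%), the G-box CACGTG (6.77%, 7.66% and 6.87%) and the evening element AAAATATCT (3.03%, 2.31% and 2.35%) are given in the same order. These shares are descriptions, overlapping matches were not removed, and a match is not a site that was shown to be bound.

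Below are the promoters of 3 strongly lowered genes with 2 or more W-boxes each, shown to place these elements, and of AT4G10270, shown for the hypoxia-responsive promoter element, a motif added after the results were seen. The sequences are RefSeq TAIR10.1, each the 250 bases before the gene start, 5′ to 3′ on the gene's strand, with capitals marking TTGACC or TTGACT (or their reverse complements GGTCAA and AGTCAA) in the first 3 and that element in the last. WRKY33 lies on the plus strand with this window at chr2:16107985-16108234, SZF1 on the plus strand at chr3:20775970-20776219, CYP707A3 on the minus strand at chr5:18371022-18371271, and AT4G10270 on the plus strand at chr4:6374484-6374733.
WRKY33: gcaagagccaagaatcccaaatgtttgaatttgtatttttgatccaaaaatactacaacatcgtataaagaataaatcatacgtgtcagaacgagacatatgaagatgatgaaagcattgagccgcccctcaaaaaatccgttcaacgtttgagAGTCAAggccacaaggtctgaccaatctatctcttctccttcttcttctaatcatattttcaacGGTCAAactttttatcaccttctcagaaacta
SZF1: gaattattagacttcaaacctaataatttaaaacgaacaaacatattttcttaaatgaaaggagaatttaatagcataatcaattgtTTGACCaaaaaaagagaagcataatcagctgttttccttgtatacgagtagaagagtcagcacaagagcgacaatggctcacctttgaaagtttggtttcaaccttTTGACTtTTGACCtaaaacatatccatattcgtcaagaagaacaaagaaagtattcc
CYP707A3: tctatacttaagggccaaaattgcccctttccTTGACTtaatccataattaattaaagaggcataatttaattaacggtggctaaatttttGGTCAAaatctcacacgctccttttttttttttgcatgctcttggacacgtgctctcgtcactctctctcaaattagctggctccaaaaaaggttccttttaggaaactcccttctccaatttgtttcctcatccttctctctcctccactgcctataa
AT4G10270: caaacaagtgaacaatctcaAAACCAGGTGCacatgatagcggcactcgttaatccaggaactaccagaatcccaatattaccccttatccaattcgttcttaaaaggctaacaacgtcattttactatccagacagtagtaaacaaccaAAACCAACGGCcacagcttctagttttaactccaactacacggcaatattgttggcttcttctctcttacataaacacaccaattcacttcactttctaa
WRKY33 holds 2 W-boxes, which start at positions -96 and -32 from the gene start, SZF1 holds 3, and CYP707A3 holds 2. Other strongly lowered genes, WRKY18, WRKY40 and LBD41 among them, held no W-box in this window. AT4G10270 holds the hypoxia element 2 times. Over whole sets that element was not more frequent among the lowered genes: it was in 0.71% of the promoters of genes that fell, 0.52% of those that rose and 0.90% of all, and in the promoter of 1 of the 15 low-oxygen genes, ADH1.

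Genes of early immune signalling and of touch and wounding fell along with these factors. Of 30 tested genes of pattern-triggered immunity 16 fell and none rose (median log2 fold change -0.56), and of 18 tested touch, wound and calcium genes 15 fell and none rose (-1.05). Among all genes tested 8.01% fell and 4.53% rose. RBOHD, the NADPH oxidase of the oxidative burst, had 33.5, 29.9 and 33.9 TPM at 2 h, against 122, 112 and 99.9 TPM at 0 h (-1.82 ± 0.08, adjusted p = 4.2e-13). PHI-1, a phosphate-responsive family gene, had 8.13, 5.79 and 7.67 TPM at 2 h, against 90.6, 77.9 and 72.1 TPM at 0 h. The groups did not overlap in either gene.

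The MAP kinase MPK3 averaged 36.5 ± 3.03 TPM at 2 h and 85.6 ± 3.34 TPM at 0 h, and the MAP kinase kinase MKK9 9.55 ± 1.46 TPM at 2 h and 44.5 ± 2.97 TPM at 0 h. TCH3, a calmodulin-like gene induced by touch, had 195, 153 and 153 TPM at 2 h, against 363, 318 and 357 TPM at 0 h. TCH4, a touch-induced xyloglucan enzyme gene, had 29.7, 21.8 and 27.1 TPM at 2 h, against 137, 109 and 113 TPM at 0 h. The log2 fold changes of TCH3 and TCH4 were -1.09 ± 0.08 and -2.24 ± 0.15, and neither gene had overlapping groups.

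**Figure D3:**
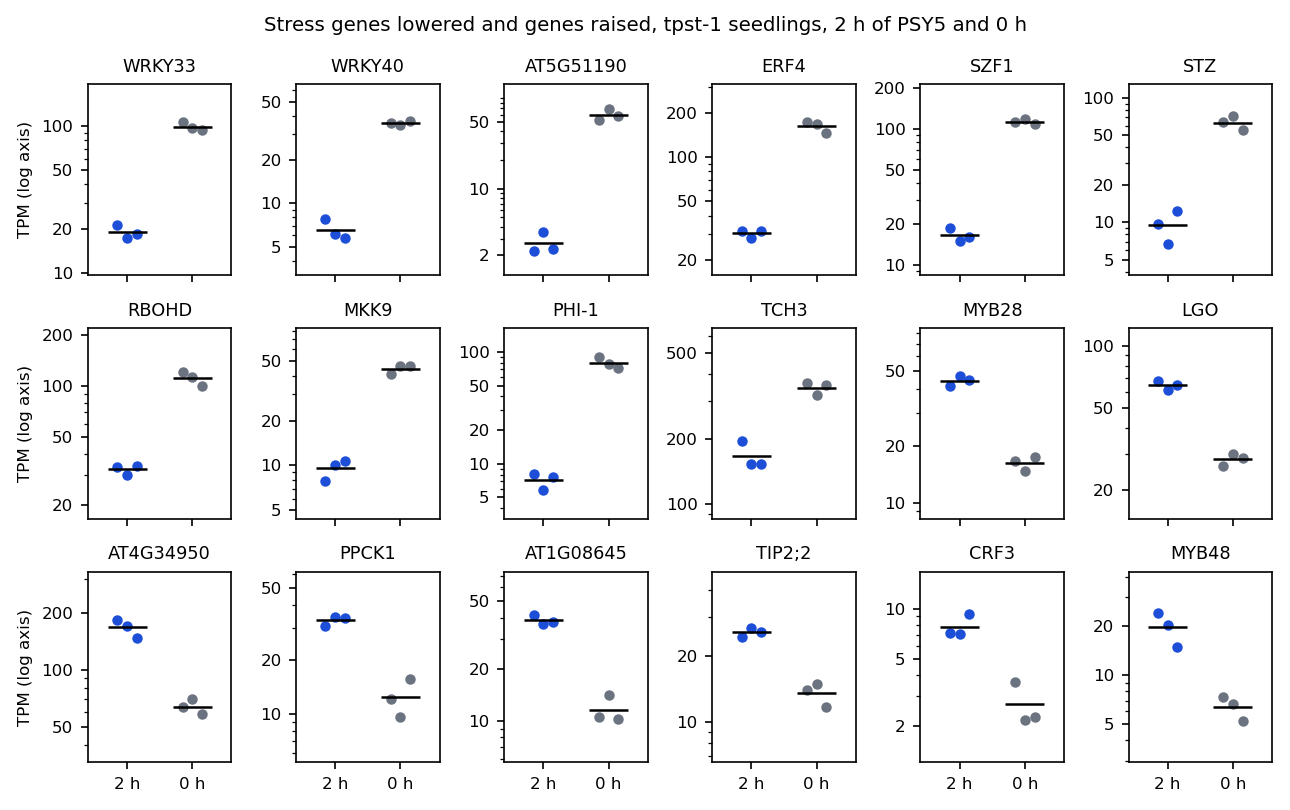
TPM on a log axis in the 3 libraries at 2 h and the 3 at 0 h, with bars at the means, for 10 genes that fell (WRKY33 to TCH3) and 8 that rose (MYB28 to MYB48). In no panel do the groups overlap, as for WRKY33 at 17.3 to 21.2 TPM at 2 h and 94.0 to 106 TPM at 0 h.

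Ethylene, jasmonate and salicylic acid genes fell more often than they rose, beside 8.01% falling and 4.53% rising among all genes. Of 22 tested ethylene genes 11 fell and none rose: ACS7, which makes the ethylene precursor ACC, had 3.72, 3.08 and 3.90 TPM at 2 h, against 31.8, 25.1 and 27.9 TPM at 0 h, and the F-box genes EBF1 and EBF2 that degrade EIN3 fell by 0.67 and 0.98 on the log2 scale. Of 31 jasmonate genes 9 fell, the repressor gene JAZ1 (-1.07 ± 0.15), the turnover enzyme gene CYP94C1 (-1.91 ± 0.23) and MYC2 (-0.84 ± 0.14) among them, and MYC4 alone rose (0.59). Of 19 salicylic acid genes 7 fell and none rose, the receptor gene NPR3 by 1.25 ± 0.08 and the immune regulator gene SARD1 by 0.99 ± 0.15.

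The abscisic acid list moved both ways, with 7 of 27 members lower and 6 higher, beside 8.01% and 4.53% of all genes. CYP707A3, which breaks abscisic acid down, had 1.29, 1.44 and 1.14 TPM at 2 h, against 35.2, 37.1 and 34.1 TPM at 0 h, and at -4.81 ± 0.16 it had the smallest adjusted p of all named genes (1.7e-14). The receptor genes PYL4, PYL5 and PYL6 fell by 0.55, 1.07 and 1.08. Those that rose were the phosphatase genes ABI1 (0.27) and HAB1 (0.32) and the stress-protection genes RD29A, listed as LTI78 (0.73), COR413IM1 (0.72), KIN2 (0.49) and P5CS1 (0.56), the last being the proline synthesis enzyme. None of these 6 rises reached 2-fold.

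In the cytokinin list 5 of 23 members rose and 1 fell: the cytokinin response factor gene CRF3 had 7.15, 7.08 and 9.24 TPM at 2 h, against 3.63, 2.18 and 2.25 TPM at 0 h (1.48 ± 0.21), CRF2, CRF5, the response regulator RR16 and the synthesis enzyme IPT5 rose by 0.68 to 0.88, and the hydroxylase CYP735A2 fell by 1.3. In the auxin list 7 of 24 fell, the conjugating enzyme gene DFL1 (GH3.6) by 0.68 ± 0.10, and 3 rose, the efflux carrier gene PIN7 by 0.58 ± 0.09. Of 30 brassinosteroid and gibberellin genes 5 rose and 2 fell, with RGL1, a DELLA repressor of growth, at 8.43 ± 0.49 TPM at 2 h and 5.24 ± 0.59 TPM at 0 h. These counts stand beside 4.53% rising and 8.01% falling among all genes.

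The sulfated peptide genes themselves fell in part, in plants that lack the enzyme to finish the peptides. TPST, the gene mutated in all of these seedlings, had 2.71, 2.64 and 2.17 TPM at 2 h and 2.65, 2.64 and 3.15 TPM at 0 h, and the difference did not pass the test (-0.24 ± 0.25, adjusted p = 0.618). With no wild-type seedling library, its level does not check the genotype. PSY1, the precursor gene of another PSY peptide, had 7.08, 4.31 and 8.63 TPM at 2 h, against 25.4, 18.9 and 24.8 TPM at 0 h (-1.79 ± 0.31, adjusted p = 2.5e-04). Of the 19 tested members of this list 6 fell and 1 rose, beside 8.01% and 4.53% of all genes.

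PSY1R, a receptor kinase gene related to the phytosulfokine receptors, had 2.09, 2.98 and 3.01 TPM at 2 h, against 5.93, 4.48 and 4.45 TPM at 0 h (-0.93 ± 0.17). The phytosulfokine receptor gene PSKR1 fell by 0.56 ± 0.14, and the precursor genes PSK1, PSK2 and PSK4 by 1.92, 1.27 and 1.25. Of 3 further receptor kinase genes with leucine-rich repeats, AT2G33170 rose, with 8.09, 9.98 and 8.58 TPM at 2 h, against 6.43, 5.90 and 5.98 TPM at 0 h (0.50 ± 0.11, adjusted p = 2.5e-03). AT1G17230 and AT5G63930 stood at 3.08 ± 0.27 and 2.70 ± 0.27 TPM at 2 h and at 3.23 ± 0.15 and 3.2 ± 0.45 TPM at 0 h, with overlapping groups.

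**Figure D4:**
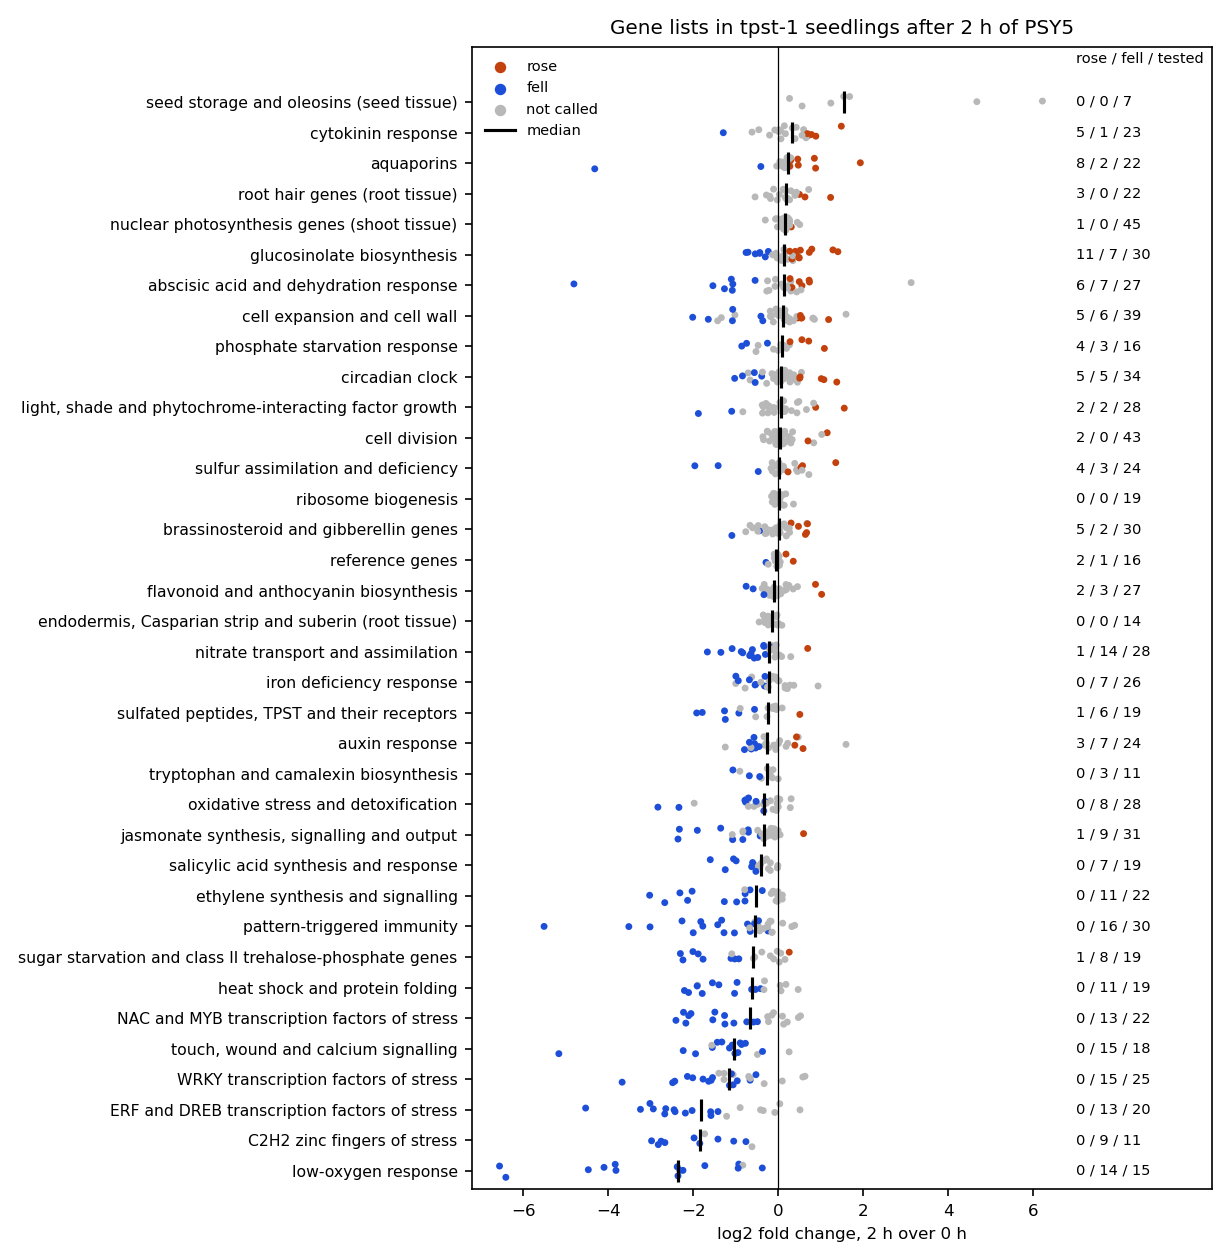
Log2 fold changes, 2 h over 0 h, of the tested members of each gene list (points, coloured by call), with the list's median as a bar and the numbers that rose, fell and were tested at the right, ordered by median. The low-oxygen list has the lowest median (-2.36), followed by the zinc-finger (-1.85) and ERF and DREB lists (-1.81).

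The genes that rose changed by less. The 15 with the largest rise held 3 short loci without a read at 0 h, ENSRNA049757750, AT1G06993 and AT1G08557, with 62.9, 21.6 and 17.7 reads at 2 h, at least 20.7-fold, 7.11-fold and 5.81-fold higher by the same floor. AT1G06993 and AT1G08557 lost their call in 5 of 17 alternatives each. The largest rise with reads in both groups, AT1G05523 at 1.79 ± 0.21, overlaps AT1G20070 by 1115 bases on the opposite strand. AT1G20070, an uncharacterised protein gene, had 7.99, 9.73 and 8.33 TPM at 2 h, against 2.97, 2.24 and 2.28 TPM at 0 h.

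MYB28, the main activator of aliphatic glucosinolate synthesis, had 41.9, 47.1 and 44.7 TPM at 2 h, against 16.7, 14.8 and 17.5 TPM at 0 h (1.40 ± 0.09, adjusted p = 1.6e-10). All 2 h libraries were above 40 TPM and all 0 h libraries below 18 TPM. AT4G34950, annotated as a major facilitator transporter, had 183, 171 and 148 TPM at 2 h, against 63.4, 70.1 and 58.4 TPM at 0 h. PPCK1, the kinase of phosphoenolpyruvate carboxylase, had 30.8, 34.3 and 34.2 TPM at 2 h, against 12.0, 9.61 and 15.6 TPM at 0 h. It overlaps AT1G08645, another of the largest rises (1.68 ± 0.23), by 472 bases on the opposite strand.

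MYB48 averaged 19.8 ± 4.61 TPM at 2 h and 6.43 ± 1.07 TPM at 0 h, and AT4G38860, of the SAUR-like auxin-responsive family, had 41.0, 34.3 and 27.3 TPM at 2 h, against 10.9, 11.2 and 12.7 TPM at 0 h. AT4G12510, a lipid-transfer family protein gene, and P1R1, annotated as a transcription factor, also belonged to the largest rises, at 1.77 ± 0.41 and 1.44 ± 0.35. CP1, a cysteine proteinase gene, stood at 17.1 TPM in 1 library at 2 h beside 4.90 and 4.53 TPM in the others, against 2.28, 4.14 and 1.44 TPM at 0 h, and it lost its call in 7 of 17 alternatives.

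Of 30 tested glucosinolate genes 11 rose and 7 fell, beside 4.53% rising and 8.01% falling among all genes. Those that rose were MYB28 and MYB29 (0.73), the transporter gene BAT5 (0.79 ± 0.10), CYP83A1 (0.52), CYP79F2 (0.49), IPMI1 (0.48), IMS2 (0.27), SOT18 (0.42) and 2 FMO GS-OX genes, with MYB34, an activator of the indolic branch, at 8.74 ± 0.78 TPM at 2 h and 3.47 ± 1.11 TPM at 0 h. Those that fell included the indolic enzyme genes CYP79B2 (-0.31), CYP79B3 (-0.71), CYP83B1 (-0.44) and SOT16 (-0.44), the transporter genes GTR1 (-0.54) and GTR2 (-0.76) and GSTU20 (-0.24), whose groups overlap.

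Of 22 aquaporin (water channel) genes 8 rose, 2 fell and the others were not called, beside 4.53% rising and 8.01% falling among all genes. The plasma membrane channel gene PIP2A had 307, 298 and 311 TPM at 2 h, against 208, 215 and 215 TPM at 0 h (0.47 ± 0.06), and the tonoplast channel gene TIP2;2 had 24.3, 26.9 and 25.7 TPM at 2 h, against 14, 14.8 and 11.7 TPM at 0 h (0.88 ± 0.10). NIP2;1, a channel gene known to be induced by low oxygen, went the other way, with 1.53, 0.79 and 1.34 TPM at 2 h, against 30.1, 21.9 and 21.7 TPM at 0 h, and it overlaps a locus on the opposite strand by 1432 bases.

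The nitrate, sugar and iron lists held more falls than rises, and the sulfur and phosphate lists did not, beside 8.01% falling and 4.53% rising among all genes. Of 28 nitrate genes 14 fell and 1 rose: the nitrate reductase gene NIA1 had 33.8, 31.7 and 35.6 TPM at 2 h, against 78.2, 90.7 and 80.4 TPM at 0 h, and the sirohaem enzyme gene UPM1 fell by 0.67 ± 0.06. Of 19 genes of sugar starvation and of class II trehalose-phosphate synthases 8 fell and 1 rose, and the raffinose synthase family gene DIN10, induced in darkness and starvation, had 22.1, 21.4 and 22.8 TPM at 2 h, against 96.9, 104 and 102 TPM at 0 h. In the sulfur list 3 of 24 fell and 4 rose, the sulfate transporter gene SULTR1;2 at -1.42 ± 0.14 and the sulfate reduction enzyme gene APR1 at 0.57 ± 0.09 on the log2 scale. Of 26 iron deficiency genes 7 fell and none rose, and of 16 phosphate starvation genes 3 fell and 4 rose, with the acid phosphatase gene PAP17 at 17.3 ± 1.17 TPM at 2 h and 7.88 ± 1.84 TPM at 0 h.

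Genes of protein folding fell as well. The counts here stand beside 8.01% falling and 4.53% rising among all genes. Of 19 heat shock genes 11 fell and none rose, with the co-activator gene MBF1C at 6.21 ± 1.33 TPM at 2 h and 17.9 ± 1.44 TPM at 0 h and the disaggregase gene HSP101 at 2.66 ± 0.52 TPM at 2 h and 6.76 ± 0.69 TPM at 0 h. Of 28 genes of oxidative stress and detoxification 8 fell and none rose, GSTF8 by 0.70 ± 0.06. GSTU11 and AGC2-1, 2 of those 8, passed the filter on low values only through the 0 h libraries, and without them 6 of 26 fell. Of 11 genes of tryptophan and camalexin synthesis 3 fell, the transporter gene PEN3 by 0.68 ± 0.07, and of 27 flavonoid genes 3 fell and 2 rose.

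The cell division and ribosome lists held few calls at 2 h, beside 12.5% of all genes called. Of 43 cell division genes 2 rose and none fell, both of them inhibitors of cyclin-dependent kinases: LGO had 67.8, 61.3 and 64.3 TPM at 2 h, against 26.1, 30.0 and 28.6 TPM at 0 h (1.15 ± 0.11), and KRP2 stood at 14.6 ± 0.94 TPM at 2 h and 8.80 ± 1.8 TPM at 0 h. The 19 ribosome biogenesis genes had no call either way, with log2 fold changes between -0.16 and 0.36. Of 39 genes of cell expansion and the cell wall 5 rose and 6 fell, the expansin gene EXPA11 at 1.18 ± 0.20 and the xyloglucan enzyme gene XTR6 at -2.02 ± 0.12.

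Of 45 photosynthesis genes 1 passed the test, PSAH2 at 0.30 ± 0.09, and with upper-quartile scaling 6 did. Of 28 genes of light and shade growth 2 rose and 2 fell, beside 4.53% rising and 8.01% falling among all genes. Of 34 clock genes 5 rose and 5 fell, with CDF3 at 14.3 ± 0.98 TPM at 2 h and 6.83 ± 0.75 TPM at 0 h and RVE1 at 3.63 ± 0.79 TPM at 2 h and 6.35 ± 0.76 TPM at 0 h, and the hour of harvest and the treatment cannot be told apart. Of 16 reference genes 2 rose and 1 fell, the largest change being UBQ10 with 0.35 ± 0.06.

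Among the root and seed tissue markers, calls fell in the root hair list alone, beside 12.5% of all genes called either way. Of 22 root hair genes 3 rose, beside 4.53% of all genes, XTH13 at 12.5 ± 0.28 TPM at 2 h and 5.16 ± 1.28 TPM at 0 h, and of 14 tested endodermis and suberin genes none was called. Of 18 seed storage and oleosin genes 7 passed the filter on low values and none was called, although their median log2 fold change was 1.54, with a summed level of 6.72 to 32.2 TPM at 2 h and 4.48 to 6.09 TPM at 0 h. The part of these tissues in the results above was not tested.

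The roots offer a look at the same genotype and peptide in libraries that share none with the seedlings. In tpst-1 roots with PSY5 against roots without, 3035 of 19958 genes tested were called, 15.2%, with 1500 higher (7.52%) and 1535 lower (7.69%). Of the 1532 genes that fell in the seedlings at 2 h and were tested in roots, 521 were lower with PSY5 in roots, 34.0% beside 7.77% of all 18400 genes tested in both, and 112 were higher (7.31% beside 7.53%). Those 521 were 36.5% of the 1429 genes lower in roots. Of the 828 that rose in seedlings and were tested in roots, 153 were higher (18.5% beside 7.53%) and 52 lower (6.28% beside 7.77%), and those 153 were 11.1% of the 1385 genes higher in roots.

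In the shoots, where 1069 of 20723 genes were called (5.16%, with 1.32% higher and 3.84% lower), 315 of the 1591 genes that fell in seedlings and were tested there were lower with PSY5, 19.8% beside 3.82% of all. Another 38 of the 1591 were higher (2.39% beside 1.37%). Of the 919 that rose, 24 were higher (2.61% beside 1.37%) and 31 lower (3.37% beside 3.82%). Across the 18400 genes tested in both, the log2 fold changes in seedlings and roots had a Pearson correlation of 0.25 and a Spearman correlation of 0.15, over genes that are not independent replicates. For seedlings and shoots these were 0.14 and 0.10 across 19833 genes. How long the roots and shoots had PSY5 is not stated in the labels used here. Replicate 1 of the untreated tpst-1 shoots stood apart, with 29.9% of its reads in its top 50 genes, beside 18.3% to 20.8% in the others. What that library did to the shoot counts was not tested.

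**Figure D5:**
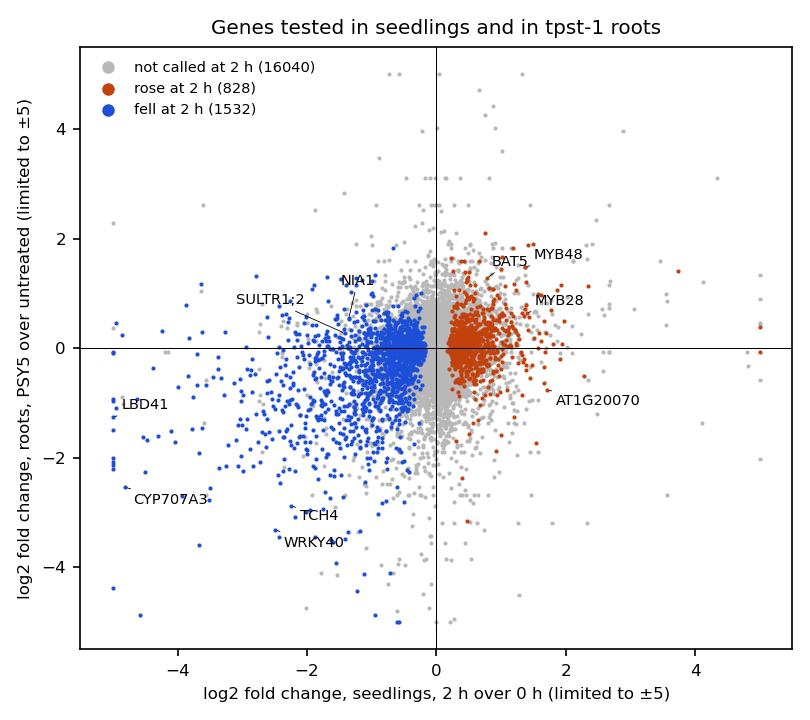
Each point is a gene tested in seedlings and in roots, with its log2 fold change at 2 h over 0 h in seedlings on the horizontal axis and with PSY5 over untreated in tpst-1 roots on the vertical axis, both limited to 5 either way. Of the 1532 lowered at 2 h, 521 were also lower in roots, WRKY40 (-2.49 in seedlings and -3.32 in roots) among them.

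By list, the roots gave these counts, beside 7.52% higher and 7.69% lower among all genes tested in roots. In roots 12 of 23 WRKY genes were lower with PSY5 and none higher (median log2 fold change -0.98), as were 13 of 18 ERF and DREB genes with 1 higher (-1.31) and 13 of 18 touch, wound and calcium genes with none higher (-1.10). Of 19 NAC and MYB genes 8 were lower with PSY5 and 2 higher (-0.54). ATAF2, at -2.06 in seedlings, stood at -0.13 in roots (adjusted p = 0.423), a difference of -1.94 (adjusted p = 8.4e-11, edgeR over both tissues). WRKY33 averaged 24.8 ± 5.37 TPM in roots with PSY5 and 71.8 ± 26.3 TPM in roots without. The summed level of the WRKY list was 213, 215 and 256 TPM at the lowest, median and highest of the 2 h seedling libraries, against 588, 595 and 671 TPM at 0 h. In roots it was 277, 327 and 364 TPM with PSY5, against 569, 719.6 and 737 TPM without.

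For the 15 low-oxygen genes, 8 were lower and 1 higher in roots with PSY5, with a median of -0.67. Among all genes tested in roots 7.69% were lower and 7.52% higher. LBD41 averaged 4.28 ± 1.12 TPM in roots with PSY5 and 10.8 ± 2.2 TPM in roots without, so untreated tpst-1 roots did not have the high level of the 0 h seedlings. In shoots LBD41 did not pass the test (0.46, adjusted p = 0.343). There the list ran the other way, with ETR2 (1.18) and SUS1 (0.68) higher with PSY5 and no member called lower. Among all genes tested in shoots 1.32% were higher and 3.84% lower. The list summed to 143.6 to 179 TPM in tpst-1 shoots with PSY5 and to 76.7 to 130.4 TPM in those without. The aquaporin and glucosinolate lists had more members higher in roots, 14 of 21 with 2 lower and 20 of 29 with 2 lower, and the nitrate list had 10 of 28 higher and 2 lower. The cytokinin list, with 5 higher in seedlings at 2 h, had none higher and 10 of 22 lower in roots. Oxidative stress and detoxification genes, 8 of which fell in seedlings, had 10 of 27 higher and 2 lower in roots (median 0.167). Heat shock genes, 11 of which fell in seedlings, had 1 of 17 lower and none higher in roots (median -0.355).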

How the data were processed

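RNA was measured by RNA-seq, with per-sample gene tables of 34262 genes deposited by the authors. The tables give expected counts and TPM as deposited, per the file headers. The build was TAIR10, per the submitters' processing notes; the program that made the tables and its strand setting are not given in the sources used here, nor is which of the 2 library kits in the labels' protocol a sample had. Expected counts were rounded to whole numbers. Genes at 1 TPM or more in at least 3 of the 15 seedling libraries were tested with edgeR 4.0.16 (R 4.3.3) in its quasi-likelihood test, with TMM factors and 1 fit over all 15 seedling libraries, and Benjamini-Hochberg adjustment over all 21069 genes. Of these, 23 passed the filter only through the 0 h libraries and 20 of them fell. Roots and shoots were fitted separately in the same way, with the filter at 3 of the 9 root libraries and 4 of the 20 shoot libraries. Unlike the seedling fit, both held further genotypes. Library totals were 10.5 to 14.3 M reads in the 2 h and 0 h seedlings and 3.21 to 4.13 M in roots. The script was tested on simulated data.

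Named genes are TPST, PSY1R and 3 receptor kinase genes, the 15 largest rises and 15 largest falls among called genes whose groups do not overlap and whose mean is at least 5 TPM in 1 group, and the up to 4 called members of each list with the smallest adjusted p. The members and lists were chosen with earlier results of these data known. Other genes are named as members of a list, and the promoters shown were chosen after their values were seen. Alternatives were DESeq2 1.42.0, limma 3.58.1 on log2(TPM + 1, 0.1 or 5), other scaling factors and filters, a replicate block, and leaving out each library. Positions come from RefSeq TAIR10.1. Of 148 named genes with a position, 43 overlap another annotated gene.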

Additional observations from a re-analysis of the deposited data

Results flagged for a closer look

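For 9 named genes the change at 2 h over 0 h in seedlings ran opposite to the change with PSY5 in tpst-1 roots, and a test of the difference itself passed (edgeR's quasi-likelihood test in 1 fit over seedlings and roots, Benjamini-Hochberg adjusted over 22758 genes). The 2 comparisons differ in tissue and in library totals. The time the roots had PSY5 and the library kit of each sample are not stated in the labels. Tissue, time, kit and handling therefore cannot be told apart. The nitrate reductase gene NIA1 had a log2 fold change of -1.35 in seedlings and 0.54 in roots, a difference of -1.91 (adjusted p = 1.4e-10). The sulfate transporter gene SULTR1;2 stood at -1.42 and 0.27, a difference of -1.70. The phosphate transporter gene PHT1;1 stood at -0.75 and 0.24, a difference of -1.0.

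The auxin response gene IAA16 differed by -0.78, the proton pump gene HA2 by -0.58 and the glutathione transferase gene GSTU7 by -1.02, each lower at 2 h in seedlings and higher with PSY5 in roots. The other direction held for the xyloglucan enzyme gene XTH31, with a difference of 1.02, the shade-induced gene PIL1, with 3.28, and AT1G20070, with 2.46, each higher at 2 h in seedlings and lower with PSY5 in roots. PIL1 and GSTU7 also lost their call at 2 h in some of the alternatives. PIL1 was near the floor, with 0.55, 0.145 and 1.087 TPM in the 0 h seedlings. AT1G20070 and GSTU7 overlap other loci on the opposite strand, by 1115 and 636 bases.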

How the results depend on the processing

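Over 17 alternatives no named gene changed direction, and 122 of 147 called named genes kept their call in every alternative that tested them. The number of genes called lay between 2056 and 2868 in the alternatives that kept all libraries, beside 2641. With limma on log2(TPM + 0.1), 1118 genes fell in place of 1687. Leaving out 1 library at a time gave 1922 to 2293 calls, 647 to 797 that rose and 1275 to 1496 that fell. With upper-quartile factors 48.8% of the calls were rises, beside 36.1%. Counts of changes over 2-fold moved most: 18 rose and 254 fell with limma on log2(TPM + 5), 55 rose with log2(TPM + 1), and 59 rose with a filter at 5 TPM, beside 126 and 654. Why these counts moved was not tested. YUC8 lost its call in 12 of 16 alternatives. With a replicate block 2490 genes were called. Deviations of same-numbered libraries had correlations of -0.0061, 0.0147 and -0.0290, and those of differently numbered libraries lay between -0.0302 and 0.037. With 3 libraries in each group, these values cannot show whether the numbers pair the libraries. Genes with few reads, such as MIR163, are limited by counting error, which these bounds cover alone.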

Other observations

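Some genes outside the accounts above stood out in single lists. PROPEP2, the precursor gene of an immune peptide, was listed at 0 TPM in all 3 libraries at 2 h, against 1.05, 1.25 and 0.92 TPM at 0 h. PROPEP3, a gene of the same family, had 0.54, 0 and 0.52 TPM at 2 h, against 3.32, 3.96 and 1.89 TPM at 0 h. The anthocyanin activator gene PAP1 rose by 1.02 and the flavonol activator gene MYB111 by 0.87, while the phenylpropanoid enzyme gene C4H fell by 0.76. Among clock genes PRR9 rose by 1.37 and AT3G12320 by 1.07. Summed over the ERF and DREB list, tpst-1 shoots with PSY5 stood at 161 to 208 TPM and tpst-1 shoots without PSY5 at 367 to 677 TPM (4 libraries each), and tpst-1 roots at 233 to 433 TPM with PSY5 and 643 to 1015 TPM without (3 each). The zinc-finger and the touch, wound and calcium sums were also apart in shoots. The WRKY sums overlapped there, at 194 to 227 TPM with PSY5 and 178 to 509 TPM without. So did the sums of pattern-triggered immunity, at 319.5 to 358 TPM with PSY5 and 288.5 to 666 TPM without.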
